A study of Sus scrofa with 24 samples.

Results

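The report follows 10 genes of the contractile apparatus across 4 stages of pig development: the fast and slow forms of troponin T (TNNT3 and TNNT1), troponin I (TNNI2 and TNNI1), troponin C (TNNC2 and TNNC1), the essential myosin light chain (MYL1 and MYL3) and the regulatory myosin light chain (MYLPF and MYL2). Members were the probe sets whose platform annotation gives 1 gene symbol and that symbol is one of the 10. They are 10 of the 6765 genes that the annotation names in this way, 5 fast and 5 slow, and each had exactly 1 such probe set among the 23935 tested. The series holds 24 Affymetrix Porcine Genome arrays, 1 per animal, from offspring of German Landrace gilts that were fed a high protein diet in gestation. There were 6 fetuses at 94 days post conception (94 dpc) and 6 pigs each at 1, 28 and 188 days post natum (dpn), and offspring of 3 gilts were taken per stage. All 4 stages share the breed and the maternal diet, so the arrays compare ages and not diets. The labels do not say which animals shared a mother, nor do they give a sex or a named muscle.

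Troponin sits on the actin filament. Its C subunit binds calcium, its I subunit holds back the interaction of actin with myosin, and its T subunit ties the complex to tropomyosin. Each subunit comes from separate genes in fast and slow twitch fibres. Myosin carries an essential and a regulatory light chain on the neck of each head, again in fast and slow forms. In mammals the slow forms TNNC1, MYL2 and MYL3 are also made in the heart ventricle. Muscle fibres are formed before birth and mature in their contractile type during postnatal growth.

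The sample labels name liver and the series title names muscle. Of 15 skeletal muscle markers outside the 10 genes, 10 were measured, and within each array their median percentile was 98.85 to 99.65. The summed signal of the 4 measured heart markers was low, 222.3 to 895.3 per array. Natriuretic peptide A (NPPA) and the cardiac calcium release channel (RYR2) had stage means under the background level of 74.7 at all 4 stages. Natriuretic peptide B (NPPB) was under it at 1 dpn and 188 dpn only. The cardiac troponin I (TNNI3) was above it at every stage, with means of 213 to 309.2. Liver markers varied between animals. Albumin (ALB) stood at 56930, 45920 and 12420 in 188 dpn animals 1, 2 and 3, against 122.9, 80.14 and 280.5 in animals 4, 5 and 6. At 1 dpn it stood at 2880, 4477 and 3484 in animals 1, 3 and 6, against 110.6, 187 and 135.6 in animals 2, 4 and 5. The 13 measured liver markers summed to 8171 to 60870 at 94 dpc and 3037 to 39820 at 1 dpn. Their sums were 3222 to 8370 at 28 dpn and 1381 to 248700 at 188 dpn. In 1 dpn animals 1, 2 and 3 the 5′ probe set of the elongation factor control EF1A, divided by the 3′ one, gave 0.135, 0.105 and 0.0963, against at least 0.670 in animals 4, 5 and 6. The skeletal muscle markers summed to 125800 in 94 dpc animal 5 and to 157200 or more in the other fetuses. The EF1A ratio was lower in every postnatal array than in the fetuses, which had 0.988 to 1.05. It was at most 0.703 at 1 dpn, 0.638 to 0.696 at 28 dpn and 0.512 to 0.656 at 188 dpn. Its part in the differences between the stages was not tested.

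All 10 genes were among the brightest features of the arrays. MYL1 ranked between 4 and 27 from the top in the 24 arrays, MYLPF between 8 and 36, and the dimmest member, MYL3, between 147 and 814. All 10 were higher at 188 dpn than at 94 dpc (limma, adjusted p at most 0.05), against a background of 12.5% of all tested probe sets that were higher. The 2 stages did not overlap in 9 of 10 (background 29.1%). Already at 1 dpn 8 of 10 were higher than at 94 dpc (background 10.1%) and 7 of 10 did not overlap (background 13.7%). In these 8 most of the log2 difference of 188 dpn was present at 1 dpn as deposited. It was not in TNNT3, with 0.11 at 1 dpn and 0.94 at 188 dpn, or in TNNI1, with 0.31 and 0.75. All 10 were higher at 28 dpn than at 94 dpc (background 10.4%), with no overlap in any (background 22.0%). At 28 dpn 1 of 10 was higher than at 1 dpn (background 11.6%), and at 188 dpn 0 of 10 differed from 28 dpn (background 14.6% in either direction), with 0 of 10 also at an unadjusted p of at most 0.05. No member was lower in any of these comparisons.

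**Figure D1:**
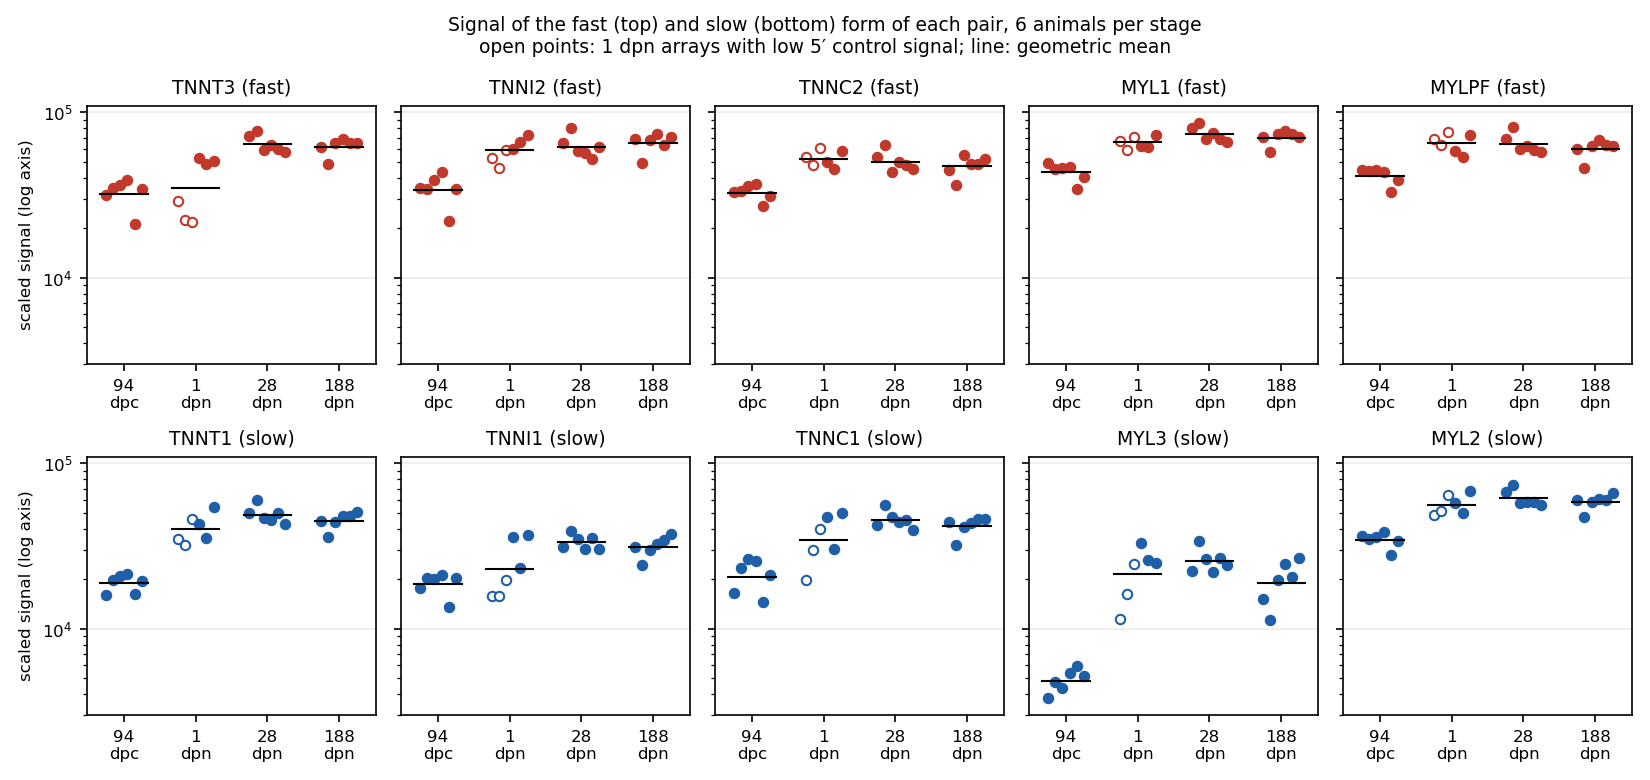
Scaled signal on a log axis for each of 6 animals at each of 4 stages, with the fast form of each pair in the top row and the slow form below it. Horizontal lines are geometric means, open points are 1 dpn animals 1, 2 and 3, and MYL3 has the lowest fetal signal, with 3788 to 5936 at 94 dpc.

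The rise between 94 dpc and 1 dpn was also seen in most of a set of bright probe sets that includes the members. No stage between these was sampled, so the rise cannot be placed before or at birth. This set held the 265 probe sets whose mean over all arrays was at least that of MYL3. Its median log2 difference between 1 dpn and 94 dpc was 0.67 and 70.9% were higher, while the median over all 23935 probe sets was -0.15. Most arrays are postnatal, so choosing by this mean favours probe sets that are brighter after birth. How far bright probe sets in general share the rise can therefore not be read from this set. The 5 fast members had a median of 0.65 and the 5 slow members one of 0.74, both close to that of the bright probe sets. For 188 dpn against 94 dpc the medians were 0.70 in fast members, 1.02 in slow members, 0.49 in bright probe sets and -0.29 in all probe sets, and 55.1% of the bright probe sets were higher. The brightest value of any probe set on an array was 73686 to 101180 at 1 dpn, against 40623 to 58582 at 94 dpc. The summed muscle markers were 333300 to 379200 at 188 dpn and 125800 to 182700 at 94 dpc. Summed markers of some other cells moved the opposite way, without overlap. Fibroblast markers (4 of 5 measured) summed to 10790 to 17380 at 188 dpn and 31390 to 36750 at 94 dpc. Smooth muscle markers (4 of 5) summed to 6596 to 8819 and 17710 to 27590, and endothelial markers (5 of 5) to 2252 to 3139 and 5937 to 10910. The median signal of the endothelial markers was instead higher at 188 dpn, 545 to 834.5 against 321.1 to 485.9 at 94 dpc. The sums of adipocyte and blood markers overlapped between these stages. At 188 dpn the mean of COL3A1 of the fibroblast list, and those of TIE1 and KDR of the endothelial list, lay under background. The part of these cells in the rise of the members was not tested. Because these are whole tissue samples, more muscle cells and more RNA per cell cannot be told apart.

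**Figure D2:**
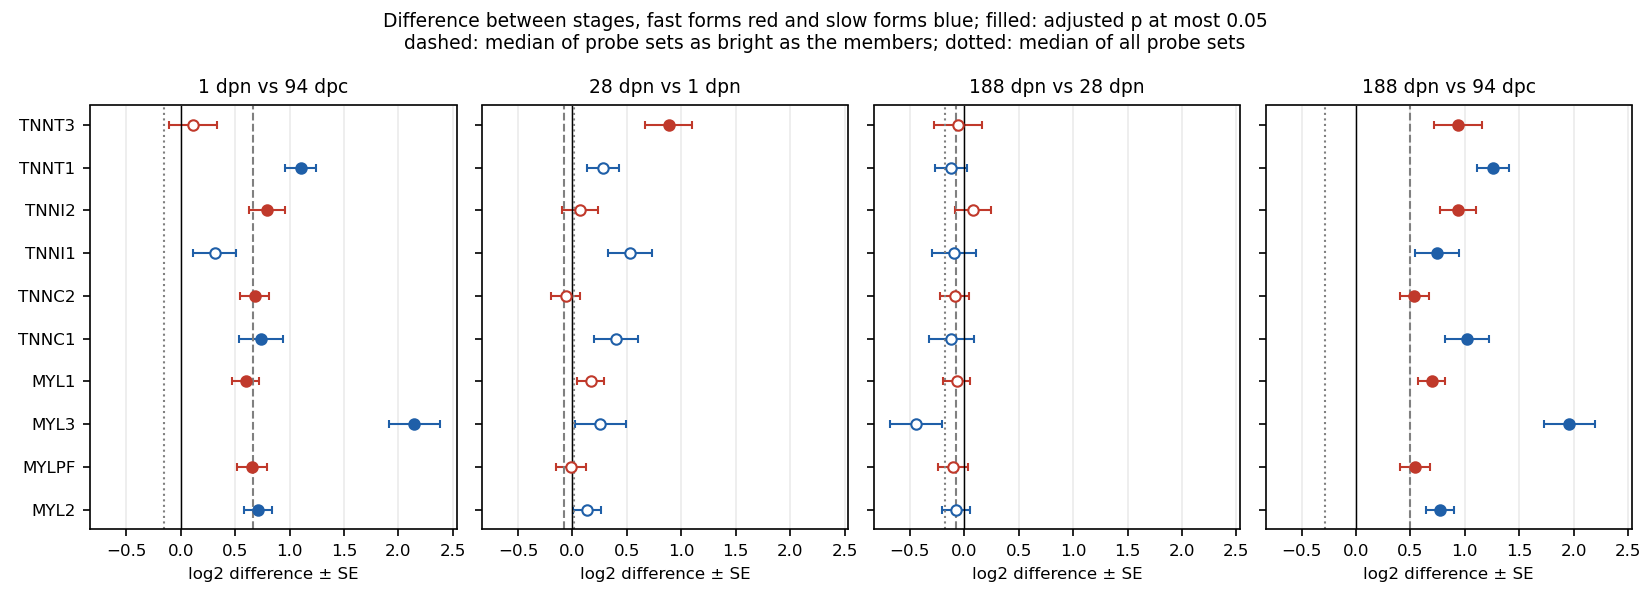
Log2 difference ± SE for each member in the 4 comparisons (later minus earlier stage, 6 animals in each), with filled points at an adjusted p of at most 0.05. The dashed line is the median of the 265 bright probe sets and the dotted line that of all 23935 probe sets. In the first panel most members lie near the dashed line at 0.67, MYL3 lies far to its right at 2.15 and TNNT3 to its left at 0.11.

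The essential light chains showed the widest split between a fast and a slow form. MYL3, the slow form, had signals of 3788, 4982 and 5936 (lowest, median and highest of 6 animals, here and below) at 94 dpc, 11475, 24876 and 33000 at 1 dpn, 22125, 25249 and 33807 at 28 dpn, and 11238, 20082 and 26630 at 188 dpn. All fetuses lay under all animals born, and the 3 postnatal stages overlapped. MYL3 averaged 21491 at 1 dpn and 4852.5 at 94 dpc, a log2 difference of 2.15 ± 0.24 (SE; adjusted p = 5.88e-07), or 4.43-fold. At 188 dpn it averaged 18857, against 25638 at 28 dpn, and this difference of -0.44 ± 0.24 did not pass (adjusted p = 0.239).

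MYL1, the fast essential light chain, had signals of 34377, 45800 and 49627 at 94 dpc, 58868, 64985 and 73410 at 1 dpn, 65997, 71836 and 86177 at 28 dpn, and 57352, 72428 and 77620 at 188 dpn. The fetuses again lay under all later animals, and the gain was smaller than in MYL3, 1.51-fold at 1 dpn against 94 dpc (0.60 ± 0.12, adjusted p = 0.0008). The fetal values of MYL1 were close to the brightest value of any probe set on those arrays, 40623 to 58582, and whether the top of the signal range limited MYL1 was not tested. Within each array, the log2 ratio of MYL1 to MYL3 was lower by 1.55 ± 0.28 at 1 dpn than at 94 dpc (shift -1.55, exact permutation test, adjusted p = 0.0173). At 188 dpn the shift against 94 dpc was -1.26 ± 0.22 (exact permutation test, adjusted p = 0.0144), and the ratios of these stages did not overlap. Between 188 dpn and 28 dpn the shift was 0.38 ± 0.17, which did not pass (exact permutation test, adjusted p = 0.0974). These ratios were tested for 5 pairs in 4 comparisons, with the p-values adjusted over all 20, and a ratio is read only for its shift, since different probe sets do not share a scale.

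MYL3 varied within stages more than most members. In 1 dpn animals 1, 2 and 3, those with low 5′ control signal, it lay at 11475 to 24752, against 25000 to 33000 in animals 4, 5 and 6. Without those 3 animals the difference between 1 dpn and 94 dpc was 2.52 (adjusted p = 8.39e-07), and the shift of MYL1 against MYL3 was -1.92 (exact permutation test, adjusted p = 0.0433). In 188 dpn animals 1, 2 and 3, those with high albumin, MYL3 lay at 11238 to 19724, against 20440 to 26630 in animals 4, 5 and 6. Without these the difference between 188 dpn and 94 dpc was 2.29 in place of 1.96, and the shift of MYL1 against MYL3 was -1.52 (exact permutation test, adjusted p = 0.0476).

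The regulatory light chains rose by similar amounts between 94 dpc and 1 dpn. MYL2, the slow form, had signals of 27840, 35354 and 38209 at 94 dpc, 48890, 54250 and 68463 at 1 dpn, 56314, 58594 and 73900 at 28 dpn, and 47340, 60024 and 65794 at 188 dpn. MYLPF, the fast form, had 33152, 44059 and 44736 at 94 dpc, 53986, 66090 and 76328 at 1 dpn, 57819, 61513 and 81403 at 28 dpn, and 46061, 62952 and 67717 at 188 dpn. In both genes the fetuses lay apart from all later animals and the postnatal stages overlapped. The difference between 1 dpn and 94 dpc was 0.71 ± 0.13 in MYL2 (adjusted p = 0.00023) and 0.65 ± 0.14 in MYLPF (adjusted p = 0.000792), and the shift of their ratio was -0.05 ± 0.07 (exact permutation test, adjusted p = 0.573).

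By 188 dpn the ratio of MYLPF to MYL2 had nevertheless moved slightly. It was lower by 0.23 ± 0.04 on the log2 scale at 188 dpn than at 94 dpc (shift -0.23, exact permutation test, adjusted p = 0.0144), a small shift in which no animal of one stage overlapped the other. MYL2 was 1.70-fold higher at 188 dpn than at 94 dpc and MYLPF 1.45-fold higher. Without 188 dpn animals 1, 2 and 3 the shift was -0.22 (exact permutation test, adjusted p = 0.0476). With 1 dpn animals 4, 5 and 6 alone, the shift between 1 dpn and 94 dpc was -0.19 (exact permutation test, adjusted p = 0.0433).

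**Figure D3:**
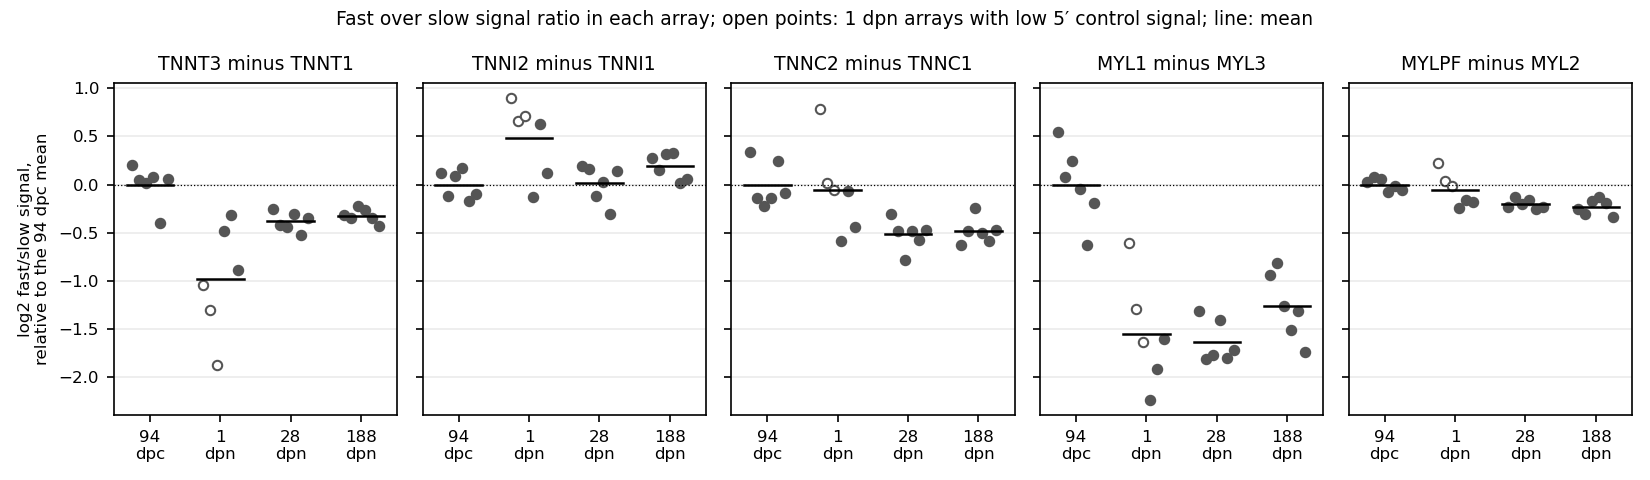
Log2 ratio of fast to slow signal in each array, set to 0 at the 94 dpc mean of each pair, with 6 animals per stage, lines at the stage means and open points for 1 dpn animals 1, 2 and 3. MYL1 against MYL3 has stage means of -1.55, -1.64 and -1.26 after birth, and the open points of 1 dpn lie apart from the filled ones for TNNT3 against TNNT1.

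Troponin T gave a split whose size at 1 dpn differed between 2 sets of animals. TNNT1, the slow form, had signals of 15885, 19475 and 21457 at 94 dpc, 32072, 39140 and 54484 at 1 dpn, 42694, 48421 and 59682 at 28 dpn, and 35904, 46270 and 50894 at 188 dpn. It averaged 40273 at 1 dpn and 18774 at 94 dpc, a difference of 1.10 ± 0.15 (adjusted p = 6.57e-06), and its later stages overlapped with 1 dpn. TNNT3, the fast form, had 21177, 34741 and 38823 at 94 dpc, 21573, 38822 and 52911 at 1 dpn, 57644, 61669 and 76577 at 28 dpn, and 48398, 64880 and 68764 at 188 dpn. TNNT3 was the member that passed at 28 dpn against 1 dpn, at 64417 and 34942 (0.88 ± 0.22, adjusted p = 0.00566), and it did not pass at 1 dpn against 94 dpc (0.11 ± 0.22, adjusted p = 0.739).

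The 1 dpn values of TNNT3 fell into 2 sets, the lower in the animals with low 5′ control signal, and the part of RNA quality, or of a shared mother, was not tested. Animals 1, 2 and 3 had 29065, 22349 and 21573, inside the fetal range of 21177 to 38823. Animals 4, 5 and 6 had 52911, 48578 and 50532, above every fetus. Without animals 1, 2 and 3 the difference between 1 dpn and 94 dpc was 0.65 (adjusted p = 0.0102) and that between 28 dpn and 1 dpn was 0.35 (adjusted p = 0.221), so both calls changed. The shift of TNNT3 against TNNT1 at 1 dpn was -0.99 ± 0.25 with all animals (exact permutation test, adjusted p = 0.0173) and -0.56 without these 3 (adjusted p = 0.068). At 188 dpn against 94 dpc, stages that differ in the EF1A ratio without overlap, the shift was -0.32 ± 0.09 (exact permutation test, adjusted p = 0.0433). Without 188 dpn animals 1, 2 and 3 it was -0.35 and did not pass in a test of 3 arrays against 6 (exact permutation test, adjusted p = 0.0779). Leaving out 1 fetus or 1 animal of 188 dpn also ended the call, with adjusted p up to 0.068, except for 94 dpc animal 5 and 188 dpn animal 3.

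Troponin I was the pair whose mean ratio moved towards the fast form. TNNI2, the fast form, had signals of 21972, 34632 and 43526 at 94 dpc, 45777, 59404 and 72916 at 1 dpn, 51994, 59904 and 80242 at 28 dpn, and 49078, 68183 and 74310 at 188 dpn. It was 1.73-fold higher at 1 dpn than at 94 dpc (0.79 ± 0.17, adjusted p = 0.00088), with no overlap, and no postnatal stage differed from another. TNNI1, the slow form, had 13528, 20092 and 21214 at 94 dpc, 15641, 21559 and 36779 at 1 dpn, 30319, 32905 and 39156 at 28 dpn, and 24111, 31663 and 37181 at 188 dpn. TNNI1 was 1.68-fold higher at 188 dpn than at 94 dpc (0.75 ± 0.20, adjusted p = 0.00457), and its differences of 0.31 ± 0.20 at 1 dpn against 94 dpc (adjusted p = 0.263) and 0.53 ± 0.20 at 28 dpn against 1 dpn (adjusted p = 0.0645) did not pass.

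Like TNNT3, TNNI1 was lower in the 1 dpn animals with low 5′ control signal, at 15641 to 19726 in animals 1, 2 and 3, against 23392 to 36779 in animals 4, 5 and 6. Without them TNNI1 was higher at 1 dpn than at 94 dpc by 0.75 (adjusted p = 0.00487). The shift of TNNI2 against TNNI1 was 0.48 ± 0.17 at 1 dpn against 94 dpc and 0.19 ± 0.08 at 188 dpn against 94 dpc, and neither passed (exact permutation test, adjusted p = 0.0708 for each). Without the 3 animals the first of these was 0.20 (exact permutation test, adjusted p = 0.355). Leaving out 1 dpn animal 4 or 6 instead, both of the set with higher 5′ control signal, raised it to 0.60 or 0.55, which passed (exact permutation test, adjusted p = 0.0186 and 0.0487). TNNI1 then also passed at 28 dpn against 1 dpn (0.66 and 0.67).

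Troponin C was shifted towards its slow form at 188 dpn against 94 dpc. TNNC1, the slow form, had signals of 14392, 22096 and 26320 at 94 dpc, 19592, 35125 and 49830 at 1 dpn, 39602, 44798 and 55597 at 28 dpn, and 32152, 43775 and 45987 at 188 dpn. TNNC2, the fast form, had 27026, 33133 and 36721 at 94 dpc, 45726, 51815 and 60953 at 1 dpn, 43489, 49196 and 63085 at 28 dpn, and 36532, 48502 and 55365 at 188 dpn. TNNC2 had its highest mean at 1 dpn and TNNC1 at 28 dpn, although in neither gene did a postnatal stage differ from the one next to it in order of level. In TNNC1 1 dpn overlapped with 94 dpc, and in TNNC2 188 dpn overlapped with 94 dpc in 1 animal, the 188 dpn animal 2 at 36532, against 36721 in the highest fetus.

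The difference between 188 dpn and 94 dpc was 1.02 ± 0.20 in TNNC1 (adjusted p = 0.000305) and 0.53 ± 0.13 in TNNC2 (adjusted p = 0.00253). The shift of TNNC2 against TNNC1 was -0.49 ± 0.11, with a narrow gap and no overlap between the stages (exact permutation test, adjusted p = 0.0144). At 1 dpn against 94 dpc it was -0.06 ± 0.22 (exact permutation test, adjusted p = 0.803). This value rested on few animals: 1 dpn animal 1, whose TNNC1 signal of 19592 was the lowest of that stage, had a ratio far above the others, and without it the shift was -0.23. Without 1 dpn animals 1, 2 and 3 it was -0.37, which did not pass either (exact permutation test, adjusted p = 0.195). The shift at 188 dpn was -0.52 without 188 dpn animals 1, 2 and 3 (exact permutation test, adjusted p = 0.0476).

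In the order of stage means, 94 dpc was the lowest stage for all 10 members. In MYL3, MYLPF and TNNC2 188 dpn came next, and in the other 7 members 1 dpn did. The highest stage was 28 dpn for TNNT3, TNNT1, TNNI1, TNNC1, MYL1, MYL3 and MYL2, 1 dpn for TNNC2 and MYLPF, and 188 dpn for TNNI2. Among neighbours in this order, the postnatal stages differed only in TNNT3, between 188 dpn and 1 dpn (adjusted p = 0.00488, background 14.1% higher). The step from 94 dpc to the next stage passed in 8 members and did not in TNNT3 and TNNI1.

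Across the 5 pairs, the ratio of fast to slow was lower at 188 dpn than at 94 dpc in 4 pairs that passed, and 1 pair, that of troponin I, did not pass and pointed the other way. At 1 dpn against 94 dpc 2 pairs passed, the essential light chains and troponin T, both lower. No pair passed at 28 dpn against 1 dpn or at 188 dpn against 28 dpn. At an unadjusted p of at most 0.05, 3 pairs moved between 28 dpn and 1 dpn, namely troponin T by 0.60 ± 0.24 (exact permutation p = 0.0238), troponin I by -0.46 ± 0.18 (p = 0.039) and troponin C by -0.46 ± 0.21 (p = 0.0303), and 0 did between 188 dpn and 28 dpn. A lower ratio states that the 2 probe sets changed unequally, and both forms had a higher signal at 188 dpn in every pair as deposited. In every pair the fast form had the brighter probe set at 94 dpc. Whether the top of the signal range limited the fast forms, and so lowered these ratios, was not tested.

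How far the members rose depended on the scaling of the arrays, while the ratios within an array are not touched by a factor common to the array. With quantile normalisation, which gives every array the same distribution, 2 of 10 members were higher at 1 dpn than at 94 dpc (background 13.3%), MYL3 by 1.69 (adjusted p = 6.8e-06) and TNNT1 by 0.42 (adjusted p = 0.00769). At 188 dpn against 94 dpc 4 of 10 were then higher (background 17.5%): MYL3 by 1.53, TNNT1 by 0.76, TNNC1 by 0.58 and TNNI2 by 0.36. MYL1 turned to -0.07 and MYLPF to -0.01 at 1 dpn, and neither passed. When each array was centred on the 10 skeletal muscle markers, 2 members were higher at 1 dpn than at 94 dpc (background 2.82%), again MYL3 and TNNT1. These markers include PYGM and NEB, themselves higher at 188 dpn than at 94 dpc (2.90 and 1.94), and MYBPC1, which did not pass (0.13). A rise that members share with the markers is removed by this centring. In that scaling 3 members passed at 188 dpn against 94 dpc, MYL3 higher by 0.93 (background 2.82%), and TNNC2 and MYLPF lower, at -0.50 and -0.49 (background 60.6%). Centring each array on its median moved the members the other way: 9 of 10 were then higher at 1 dpn than at 94 dpc (background 17.2%), and at 188 dpn against 94 dpc the fast and slow medians were 1.23 and 1.55, where they were 0.70 and 1.02 as deposited. MYL3 passed in both comparisons as deposited and under these 3 other scalings. The shift of MYL1 against MYL3 at 188 dpn was -1.48 with quantile normalisation, and that of TNNC2 against TNNC1 was -0.53 (exact permutation test, adjusted p = 0.0108 for each). Under it the shift of TNNI2 against TNNI1 at 1 dpn, 0.47, passed as well (exact permutation test, adjusted p = 0.0289).

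**Figure D4:**
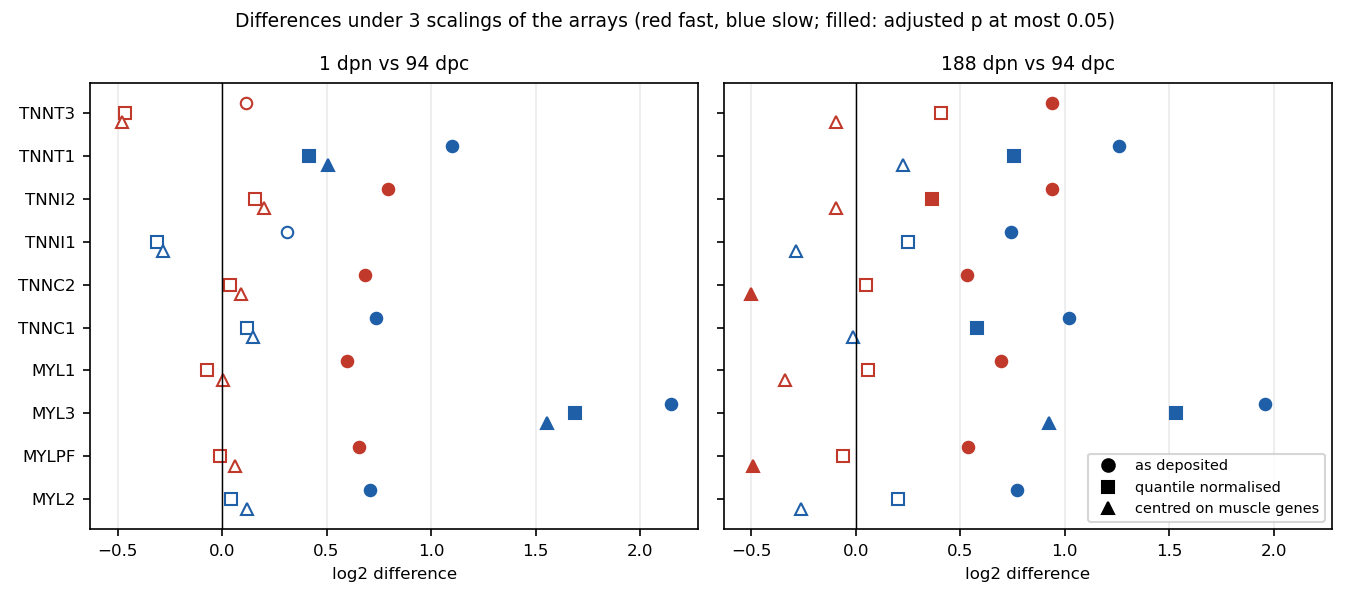
Log2 difference of each member at 1 dpn against 94 dpc and at 188 dpn against 94 dpc under 3 scalings, fast forms in red and slow forms in blue, filled at an adjusted p of at most 0.05. Circles are the deposited values, squares quantile normalisation and triangles arrays centred on 10 muscle markers. MYL3 stays filled and at or above 0.93 throughout, while MYL1 and MYLPF lie near 0 or below it under both other scalings.

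The members were correlated over the 24 arrays to differing degrees. Their 45 pairwise Pearson correlations of log2 signal had medians of 0.878 among fast forms, 0.910 among slow forms and 0.843 between fast and slow forms. The lowest values of these kinds were 0.453, 0.734 and 0.580. After each stage mean was subtracted, the medians were 0.726, 0.715 and 0.531 and the lowest values 0.201, 0.466 and 0.156. MYL3 with MYLPF (0.156) and with MYL1 (0.169) had the lowest within-stage values. These values describe arrays that share stage, scaling and quality, are not tests, and were not set against other bright genes. Among 5471 other genes above background, TNNT1 was most like MYH7, the slow myosin heavy chain (r = 0.982), followed by the muscle enolase ENO3 and the initiation factor EIF1 (0.968 and 0.967). MYL2 was most like CKM, the muscle creatine kinase (0.977), then MYH7 and ENO3 (0.974 and 0.968), and MYL1 was most like CKM, EIF1 and ENO3 (0.982, 0.961 and 0.960).

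Other members had other neighbours. TNNI2 was most like CKM, ENO3 and YBX3 (0.958, 0.944 and 0.928), and TNNT3 was most like PARK7, the tropomyosin TPM1 and UBAC1 (0.958, 0.945 and 0.941). The fast forms TNNC2 and MYLPF shared GAPDH, ACTG1 and ZC3H10, with r between 0.949 and 0.978. The slow forms TNNI1 and TNNC1 shared PIH1D1 (0.919 and 0.925), beside HIGD2A and AKT1S1 for TNNI1 (0.927 and 0.905) and PRDX2 and GPX4 for TNNC1 (0.927 and 0.918). MYL3 stood with mitochondrial genes, the isocitrate dehydrogenase IDH2 and the complex I subunit NDUFS3 (0.945 and 0.934), and with LOC100156967 (0.933), and within stages these 3 values were 0.621, 0.588 and 0.337.

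Other genes of fast fibres also had higher signal after birth. Each list gene named below passed the limma test at 188 dpn against 94 dpc unless stated otherwise. Of 6 measured genes of a fast fibre list, 6 were higher and 0 lower at 188 dpn than at 94 dpc, with a median of 3.05. ATP2A1, the calcium pump of fast fibres, averaged 21260 at 188 dpn and 1269 at 94 dpc (4.07 ± 0.22), and PFKM, the muscle phosphofructokinase, averaged 49730 and 3917 (3.67 ± 0.24). MYH2, a fast myosin heavy chain, averaged 71830 and 7754 (3.21 ± 0.43), and PYGM, the muscle glycogen phosphorylase, averaged 49590 and 6656 (2.90 ± 0.16). At 1 dpn MYH2 averaged 7653, with a wide range of 1851 to 18640, against 7754 at 94 dpc, with 3502 to 18420. TNNI2, TNNC2, MYL1 and MYLPF were already higher at 1 dpn as deposited, but none of them passed with quantile normalisation.

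The slow fibre list was mixed. Of 7 measured genes 4 were higher and 2 lower at 188 dpn than at 94 dpc, with a median of 0.87, the same with CASQ2 at its bound. MYH7 averaged 49010 at 188 dpn and 23970 at 94 dpc (1.03 ± 0.14), and CA3, a carbonic anhydrase of slow fibres, averaged 40320 and 13370 (1.59 ± 0.32). The slow tropomyosin TPM3 averaged 1026 at 188 dpn and 3587 at 94 dpc (-1.81 ± 0.21). CASQ2, the calsequestrin of slow and heart muscle, stood under background at 188 dpn with 45.53, against 2210 at 94 dpc, which is at least 29.6-fold lower.

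Most measured genes of the embryonic and cardiac sarcomere fell. Of 4 measured, 0 were higher and 3 lower at 188 dpn than at 94 dpc, with a median of -4.75, the same with TNNT2 at its bound. TNNT2, the cardiac troponin T that developing muscle also makes, averaged 67.99 at 188 dpn, under background, and 3041 at 94 dpc, at least 40.7-fold lower. MYL4, an embryonic essential light chain, averaged 250.9 and 6286 (-4.65 ± 0.29), and ACTC1, the cardiac actin, averaged 1149 and 33340 (-4.86 ± 0.29). TNNI3, the cardiac troponin I, did not pass (-0.32). On the Sscrofa11.1 assembly TNNT1 lies next to TNNI3, TNNI1 lies 1 gene away from TNNT2, and TNNI2 and TNNT3 lie with 2 genes between them. Of these neighbours, TNNI2 and TNNT3 were both higher at 188 dpn than at 94 dpc, by 0.94 each, while TNNI1 was higher and TNNT2 lower.

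Of 8 measured genes of other thin filament proteins, 5 were higher and 0 lower at 188 dpn than at 94 dpc, with a median of 0.71. TMOD4, a tropomodulin that caps the filament in muscle, averaged 33970 at 188 dpn and 3250 at 94 dpc (3.39 ± 0.27), and NEB, the giant filament protein nebulin, averaged 45440 and 11870 (1.94 ± 0.14). TMOD1 (1.05 ± 0.18) and the leiomodin LMOD3 (0.90 ± 0.27) also passed. Among regulators of fibre type 5 of 13 measured were higher and 0 lower, with a median of 0.14. PPP3CB and PPP3CA, catalytic subunits of the phosphatase calcineurin, rose by 2.10 ± 0.16 and 1.22 ± 0.27, and the transcription factors TEAD1 and MEF2A by 0.99 ± 0.30 and 0.92 ± 0.21. Of the 3 measured genes of light chain phosphorylation, the phosphatase subunit PPP1CB was higher (1.15 ± 0.32), its myosin targeting partner PPP1R12A was lower (-1.04 ± 0.21) and the kinase MYLK, under background at both stages, did not pass. Against a background of 12.5% of all probe sets higher and 27.4% lower in this comparison, these counts over few genes are descriptions.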

How the data were processed

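Per the labels' protocols, total RNA was isolated with TRI Reagent, treated with DNase, cleaned on RNeasy columns, and 0.5 µg was made into biotinylated cRNA for 1 array per animal. The deposited values are linear signal intensity per probe set, made with GCOS 1.1.1 per the submitters' processing notes, and the arrays had been scaled to nearly equal trimmed means (498.32 to 499.39). The summary method and scaling target are not given in the sources used here. The file holds 24118 probe sets. The 183 control probe sets were left out and 23935 tested, unfiltered and as plain log2. The platform annotation gives 10069 of them 1 symbol, 198 several and 13668 none. The background level, 74.7, is the 95th percentile of the 17 Tag controls in the 24 arrays. A fold against a mean under this level is a bound.

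Stage differences come from limma 3.58.1 in R 4.3.3 (lmFit, eBayes, 24 arrays, 4 stage means, 20 residual degrees of freedom, two-sided), adjusted by Benjamini-Hochberg over all 23935 probe sets, with a threshold of 0.05. Errors are SE, and stage means are geometric means of 6 animals. The log2 fast to slow ratio of each pair was compared between stages by an exact two-sided permutation test over the 924 splits of 12 arrays (smallest p 0.00216), adjusted over the 20 tests. With 3 arrays against 6 there are 84 splits and the smallest p is 0.0119, so a lost call can reflect fewer arrays. With 6 animals from 3 gilts, every stage holds litter mates. Litter mates share a mother, which the tests ignore, so p-values are too small. Precision is limited by the 6 arrays and 3 gilts per stage.

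The members and the lists were chosen with earlier results of these data known. Named genes were all 10 members, up to 4 members per list with the largest passing difference at 188 dpn against 94 dpc, and the 3 genes most correlated with each member. On simulated data with the spread of these arrays, the limma fit made few false calls and missed many changes in dim probe sets, so counts of calls outside the bright range are incomplete. The simulated noise was normal and independent between probe sets and arrays. It held no shared mother or RNA quality, so it cannot give the false call rate of the real arrays. Animal numbers follow sample order and pair nothing. Alternatives were other scalings, added constants, filters, fits and left-out arrays. Figures were drawn with Python 3.11.15 and matplotlib 3.10.9. Gene neighbours come from the gene order of the Sscrofa11.1 table, whose coordinates are not printed, and no sequences were used.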

Additional observations from a re-analysis of the deposited data

Results flagged for a closer look

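In 40 groups of 6 animals (10 genes at 4 stages), 7 held 1 animal far from the others by Dixon's ratio, which chance gives in about 1 of 20 groups, and the genes of an array are not independent. Animal 2 of 188 dpn was the lowest of its stage in 5 of these: TNNT3 at 48398 against 61369 in the next lowest animal, TNNC1 at 32152 against 41282, MYL1 at 57352 against 70649, MYLPF at 46061 against 60356 and MYL2 at 47340 against 58651. This array also had an albumin signal of 45920 and the lowest summed skeletal muscle markers of its stage, 333300. Animal 5 of 94 dpc was the lowest in the other 2: TNNT3 at 21177 against 31405 and TNNI2 at 21972 against 34320. Its summed skeletal muscle markers were 125800, the lowest of all 24 arrays. The part of either array in the results was tested only by leaving it out, which changed no count of members by more than 1.5 times. Without animal 2 of 188 dpn the shift of TNNT3 against TNNT1 at 188 dpn against 94 dpc no longer passed (exact permutation test, adjusted p = 0.0505). Leaving out most other single animals of these 2 stages also ended that call.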

How the results depend on the processing

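No paired analysis was possible because the labels give no replicate numbers and the stages hold different animals. As deposited, 8, 1, 0 and 10 members passed in the order 1 dpn against 94 dpc, 28 dpn against 1 dpn, 188 dpn against 28 dpn and 188 dpn against 94 dpc, and 2, 0, 0 and 4 pairs did. With quantile normalisation the first, second and last counts of members were 2, 4 and 4, and 3 pairs passed at 28 dpn against 1 dpn. Centred on skeletal muscle markers, a choice made after seeing the data, they were 2, 0 and 3. At 28 dpn against 1 dpn 2 members passed with 64 added before log2, with the dimmest 30% of features left out and with trend and robust settings, TNNI1 joining TNNT3, and 0 passed without 1 dpn animals 1, 2 and 3. With 94 dpc animal 5 and animals 1, 2 and 3 of 1 dpn and 188 dpn all left out, also chosen after seeing the data, 0 members passed at 28 dpn against 1 dpn, and 0 pairs passed at 1 dpn and at 188 dpn against 94 dpc. With so few arrays, the smallest adjusted p of a pair was 0.051, while MYL1 against MYL3 stood at -2.05 and -1.65. Leaving out 1 animal gave 8 to 8, 1 to 2, 0 to 0 and 10 to 10 members and 2 to 3, 0 to 4, 0 to 0 and 3 to 4 pairs, with 4 pairs at 28 dpn against 1 dpn without 1 dpn animal 4. TNNC1 at 1 dpn against 94 dpc lost its call in a fit of those 2 stages alone (adjusted p = 0.0618).

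Directions turned as follows. With quantile normalisation MYL1 was at -0.0712 and MYLPF at -0.0111 at 1 dpn against 94 dpc, and MYLPF at -0.0596 at 188 dpn against 94 dpc. Centred on muscle markers, 188 dpn against 94 dpc gave -0.0939 for TNNT3, -0.0951 for TNNI2, -0.29 for TNNI1, -0.50 for TNNC2, -0.0123 for TNNC1, -0.34 for MYL1, -0.49 for MYLPF and -0.26 for MYL2. This centring moved the median of all probe sets to -0.75 at 1 dpn and -1.32 at 188 dpn against 94 dpc. Over all probe sets the share of higher among changed ones was 32.8% as deposited, 47.5% with quantile normalisation, 59.2% with median centring and 6.48% with muscle centring at 1 dpn against 94 dpc, and 31.3%, 48.6%, 60.8% and 4.44% at 188 dpn against 94 dpc. At 188 dpn against 28 dpn it was 28.2%, 42.0%, 63.0% and 24.5%. Each gene has 1 probe set, so averaging probe sets could not change its value.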
